A study of Drosophila melanogaster with 3 samples.

Results

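The nuclear genes of oxidative phosphorylation were examined for occupancy by CG44002-eGFP in whole Drosophila melanogaster prepupae. They were chosen by name, as the protein-coding genes of the Ensembl annotation called ND- (complex I), SdhA to SdhD (complex II), UQCR, RFeSP and Cyt-c1 (complex III), COX with a digit (complex IV) and ATPsyn (complex V). This gave 86 of 13945 coding genes on 6 chromosome arms, with 40 in complex I, 4 in complex II, 11 in complex III, 16 in complex IV and 15 in complex V. The study holds 1 group of 3 biological replicates, each of pooled male and female animals of unknown age, from the strain labelled CG34406-GFP. These flies stably carry CG44002 fused to GFP at its C-terminal end, and chromatin was precipitated through GFP. The antibody label names CG34406, which the RefSeq gene table lists as a synonym of CG44002. The sources used here do not give the promoter that drives the fusion. There is only this condition, and the control was not analysed here, so every value below is a description and no test was made. Whole animals were used, so weak occupancy in many cells and strong occupancy in few cannot be told apart.

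Oxidative phosphorylation makes most of a cell's ATP in mitochondria. Complexes I to IV pass electrons from NADH and succinate to oxygen, complexes I, III and IV pump protons, and complex V, the ATP synthase, uses the proton gradient to make ATP. Most subunits are encoded in the nucleus and a few in mitochondrial DNA. Several subunits have a duplicate gene in Drosophila, named with an L at the end for like, sometimes followed by a digit. During the prepupal stage larval tissues are broken down while adult tissues grow.

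A gene was counted as bound when the summit of a peak in the replicate-filtered list, cut by the irreproducible discovery rate (IDR), lay within 500 bp of any of its annotated starts. Peaks were ranked within a list by the authors' signal value, with rank 1 the highest of 7089 in the IDR list. For each replicate, the 7089 highest peaks of its own list of 30000 are called its top N. A gene is called divergent when its 5′ end faces away from the 5′ end of a gene on the opposite strand, 1000 bp or less upstream. Read depth cannot be taken from peak lists and is unknown.

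The summits at most bound genes lay in short stretches of DNA between an oxidative phosphorylation gene and its neighbour on the opposite strand. The stretches at 5 complex I genes are shown, because they include high-ranked summits and all those with a match to the nuclear respiratory gene element. Each is noncoding DNA between annotated exons around the summit, at most 300 bases, from the RefSeq copy of genome release 6 (dm6), plus strand. Capitals mark matches on either strand to the TATA string TATAAA or to the nuclear respiratory gene element, searched as TTACATAA, TTACGTAA, TTATATAA or TTATGTAA, and at ND-MNLL also to the DNA replication-related element (DRE), TATCGATA. The stretch at ND-51 holds no match. The stretch at ND-ASHI is chrX:6679221-6679520, that at ND-42 is chr3R:22027481-22027708, that at ND-51 is chr2L:6062758-6062988, that at ND-SGDH is chr3L:12138585-12138805 and that at ND-MNLL is chrX:7893799-7894030.
ND-ASHI: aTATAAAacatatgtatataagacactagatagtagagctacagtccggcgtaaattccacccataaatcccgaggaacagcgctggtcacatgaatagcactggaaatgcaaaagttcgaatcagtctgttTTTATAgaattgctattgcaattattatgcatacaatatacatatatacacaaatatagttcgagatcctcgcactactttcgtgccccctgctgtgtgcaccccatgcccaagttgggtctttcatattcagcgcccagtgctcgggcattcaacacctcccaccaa
ND-42: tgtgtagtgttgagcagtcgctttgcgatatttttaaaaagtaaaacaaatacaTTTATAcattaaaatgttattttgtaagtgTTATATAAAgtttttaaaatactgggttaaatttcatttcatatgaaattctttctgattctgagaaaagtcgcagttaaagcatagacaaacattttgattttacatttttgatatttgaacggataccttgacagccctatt
ND-51: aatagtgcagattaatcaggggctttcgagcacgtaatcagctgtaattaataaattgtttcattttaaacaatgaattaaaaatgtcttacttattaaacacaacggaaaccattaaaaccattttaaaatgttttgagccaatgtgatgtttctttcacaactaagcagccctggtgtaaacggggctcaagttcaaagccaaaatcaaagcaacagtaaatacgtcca
ND-SGDH: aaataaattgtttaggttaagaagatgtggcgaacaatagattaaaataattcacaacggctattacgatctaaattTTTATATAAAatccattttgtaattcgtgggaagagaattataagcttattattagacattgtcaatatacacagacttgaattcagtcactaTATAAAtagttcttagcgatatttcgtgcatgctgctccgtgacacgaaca
ND-MNLL: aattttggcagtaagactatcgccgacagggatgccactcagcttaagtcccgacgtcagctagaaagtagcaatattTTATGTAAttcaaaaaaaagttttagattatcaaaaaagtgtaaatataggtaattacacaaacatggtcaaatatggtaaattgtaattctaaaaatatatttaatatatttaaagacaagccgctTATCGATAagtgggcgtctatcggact

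In the IDR list, oxidative phosphorylation genes were bound about as often as coding genes in general. Where every replicate was required, the share was lower for the whole set, but not for complex I. In all, 16 of 86 genes (18.6%, 95% exact binomial interval 11.0% to 28.4%) were bound, beside 19.5% of all coding genes. In the top N of replicates 1, 2 and 3, 16, 18 and 11 of the 86 genes were bound, or 17.4% ± 4.19 (SD, n = 3), beside 20.8%, 20.7% and 20.0% of coding genes in the same replicates. Replicate 3 was lowest for these genes. In every replicate 7 of the 86 (8.14%) were bound, beside 14.5% of coding genes. Asking for an IDR summit that was also in the top N of replicates 2 and 3 or of 1 and 3 also left 7, beside 14.6% and 15.2% of coding genes, while replicates 1 and 2 gave 15 (17.4%), beside 15.9%. In the longer pooled list, which holds peaks and background, 35 of the 86 (40.7%) had a summit within 500 bp of a start, beside 38.9% of all coding genes.

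The bound genes were spread over complexes I, II, IV and V, and none encodes a subunit of complex III. Complex I had 8 of 40 bound (20.0%, interval 9.05% to 35.6%), complex II 1 of 4, complex III 0 of 11, complex IV 4 of 16 (interval 7.27% to 52.4%) and complex V 3 of 15 (20.0%, interval 4.33% to 48.1%). These counts include the duplicate genes, which are unevenly spread over the complexes. The share of divergent genes also differed, from 27.3% in complex III to 60.0% in complex V. A count of 0 among 11 genes allows a share of up to 27.3%, taking 3 counts as the limit, so a difference between complexes was not detectable at this number of genes. In replicate 3 the count was 1 gene for complex III, UQCR-C2, and 0 for complex V.

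**Figure D1:**
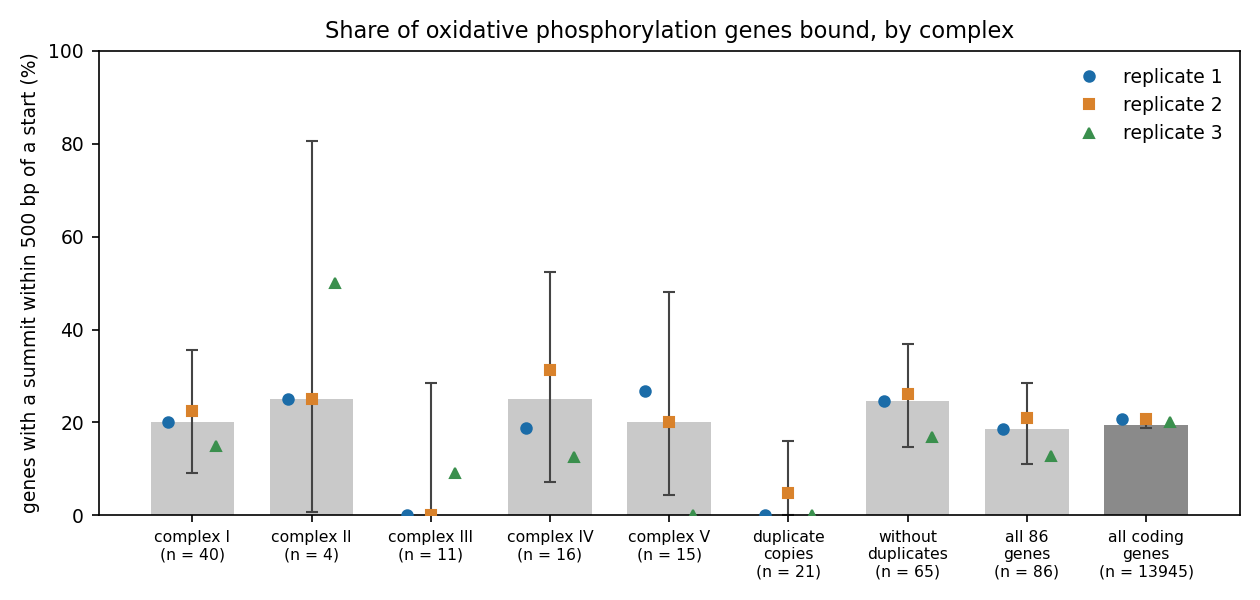
Share of genes with a summit within 500 bp of a start (y axis, percent) in each group (x axis, with the number of genes). Bars are the IDR list with 95% exact binomial intervals and points are the top N of each replicate; the intervals of all 5 complexes cover the 19.5% of all coding genes.

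None of the duplicate copies was bound. All 16 bound genes were among the 65 without a like name (24.6%, interval 14.8% to 36.9%), beside 19.5% of all coding genes. For the 21 duplicates the count of 0 allows up to 14.3% (exact upper limit 16.1%). The share was 13.2% for coding genes that are not divergent, as most duplicates are not. In the replicates, 1 duplicate was bound in replicate 2, COX7AL2 at rank 5319, and 0 in the others. COX7AL2 lay 513 bp from an IDR summit, just past the limit, and the other duplicates lay farther away. The median distance from the nearest IDR summit was 15184 bp for the 21 duplicates, 3970 bp for the other 65 genes and 6363 bp for coding genes outside oxidative phosphorylation. Of the duplicates, 3 of 21 (14.3%) were divergent, beside 37 of 65 (56.9%) of the other oxidative phosphorylation genes and 36.3% of all coding genes. The part of this arrangement in the absence of bound duplicates was not tested.

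**Figure D2:**
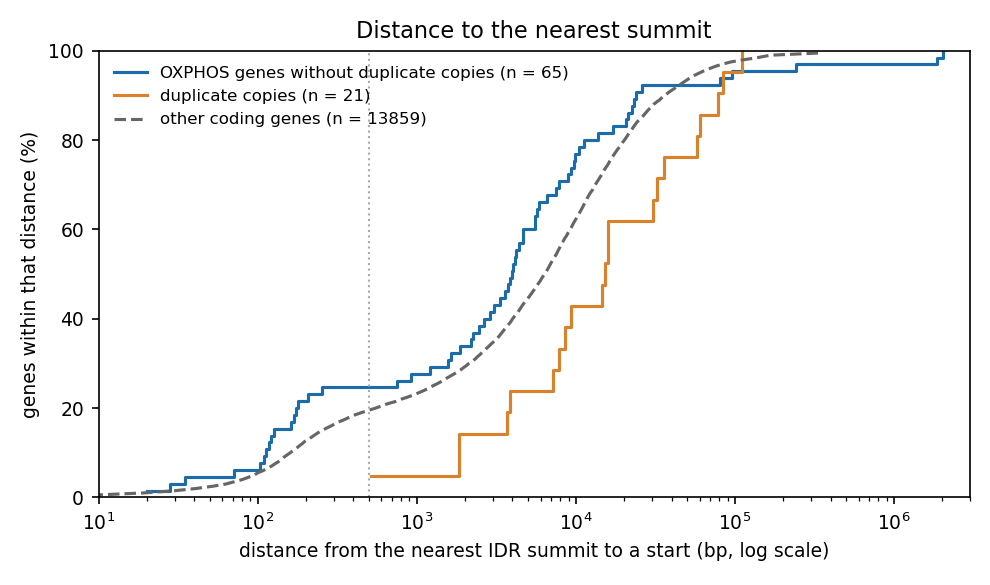
Share of genes (y axis, percent) whose nearest IDR summit lies within a given distance of a start (x axis, bp, log scale), for oxidative phosphorylation genes (OXPHOS) without duplicates, duplicates, and other coding genes; the dotted line marks 500 bp. At 5000 bp the shares were 60.0%, 23.8% and 44.6% in that order.

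Complex I is the entry point for electrons from NADH, and its bound genes held the highest-ranked peaks of the set. The highest was at ND-ASHI (FBgn0029888), an accessory subunit, with IDR rank 243 and ranks 250, 284 and 225 in replicates 1, 2 and 3. ND-MWFE, an accessory subunit of the membrane arm, had IDR rank 1331 and ranks 1247, 1143 and 2110 in the replicates. ND-42 (FBgn0019957), an accessory subunit, had IDR rank 1430 and ranks 1217, 1083 and 2640. These summits were in the top N of every replicate, with replicate 3 the lowest for ND-MWFE and ND-42. ND-51, which binds flavin and takes the electrons from NADH, had IDR rank 2204 and ranks 2057, 2026 and 3048. ND-SGDH, a further accessory subunit, had IDR rank 2622 and ranks 2448, 3375 and 2721. ND-24, the iron-sulfur partner of ND-51, had IDR rank 3966 and ranks 4402, 3436 and 5541. All of these too were in the top N of every replicate. ND-MNLL, an accessory subunit, had IDR rank 5113 and ranks 4858, 4353 and 10739. ND-23, an iron-sulfur subunit of the arm that reaches the matrix, had IDR rank 5776 and ranks 6991, 4504 and 10141. In these 2 cases replicate 3 fell outside its top N. Of the 7 conserved core subunits encoded in the nucleus, ND-51, ND-24 and ND-23 were bound, and ND-75, ND-49, ND-30 and ND-20 were not. The nearest summit to ND-75, the largest iron-sulfur subunit, was 753 bp away.

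Complex II, succinate dehydrogenase, links the tricarboxylic acid cycle to the chain, and 1 of its 4 genes was bound. SdhC, a membrane anchor subunit, had IDR rank 4782 and ranks 6455, 3468 and 6122 in replicates 1, 2 and 3, inside the top N of each. SdhA, the flavoprotein, lay 22464 bp from the nearest IDR summit, and SdhB, the iron-sulfur subunit, and SdhD, the other anchor, lay 2255 and 2452 bp away. In the pooled list all 4 had a summit within 500 bp, but those of SdhA, SdhB and SdhD ranked 11241, 22257 and 25694 of 30000, deep in a list that includes background.

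Complex III passes electrons from ubiquinol to cytochrome c. Its nearest approach was at UQCR-14, 925 bp from an IDR summit, followed by the core subunit UQCR-C2 at 1213 bp. RFeSP, the Rieske iron-sulfur protein, lay 2872 bp away, UQCR-C1 3856 bp and Cyt-c1 4683 bp.

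Complex IV, cytochrome c oxidase, reduces oxygen, and its bound genes in the set had low-ranked peaks. The subunit genes cype and levy are outside the set and are given below. COX7B had IDR rank 5805 and ranks 5173, 4970 and 11572 in replicates 1, 2 and 3. COX5A (FBgn0019624) had IDR rank 5921 and ranks 6262, 4848 and 12595. COX5B had IDR rank 6477 and ranks 6240 and 5803 in replicates 1 and 2, with no such peak in the list of replicate 3. Replicate 3 was thus the weak one for all of these nuclear-encoded subunits. COX7C went the other way, with IDR rank 6610 and ranks 11744, 8303 and 3959, so that only replicate 3 placed it in the top N. COX4, another nuclear-encoded subunit, lay 17182 bp from the nearest IDR summit.

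Complex V had 3 bound genes in the set, from the rotor, the membrane part and the peripheral stalk. ATPsyngamma, the central stalk subunit that turns, had IDR rank 4219 and ranks 3981 and 3621 in replicates 1 and 2. ATPsynE, a small membrane subunit, had IDR rank 4946 and ranks 5761 and 3770 in replicates 1 and 2. Neither had a peak in the list of replicate 3. ATPsynCF6, of the peripheral stalk, had IDR rank 5175 and ranks 5000, 4649 and 12403. ATPsynbeta, the catalytic subunit, was 4212 bp from the nearest IDR summit.

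**Figure D3:**
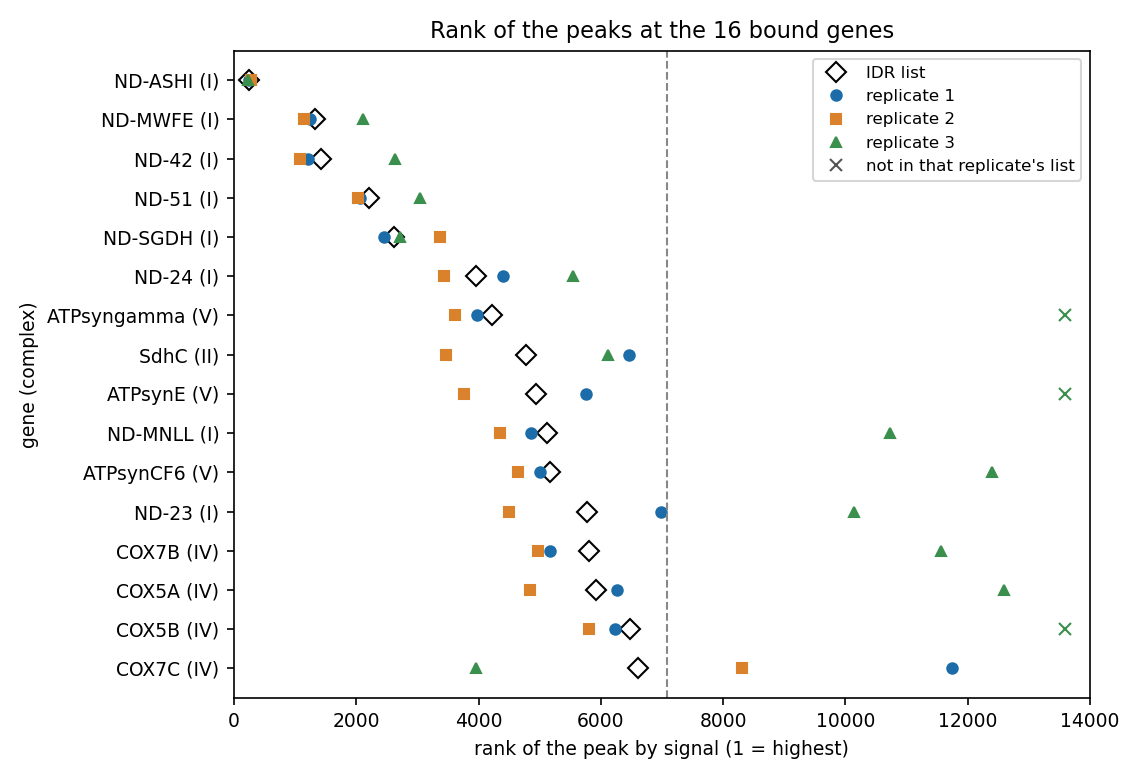
Rank by signal (x axis, 1 = highest) of the peak at each of the 16 bound genes (y axis, complex in brackets) in the IDR list and in each replicate; the dashed line is rank 7089 and crosses mark peaks not in a replicate's list. From ND-MNLL at IDR rank 5113 to COX5B at 6477, every point of replicate 3 lies past the line or is a cross.

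The peaks at oxidative phosphorylation genes ranked low among peaks at genes, in the IDR list and in the top N of each replicate. The difference was smaller among genes also in the top N of replicates 2 and 3, or of 1 and 3. The median IDR rank was 4864 for the 16 bound genes (range 243 to 6610), against 2808 for all bound coding genes. Of the 16, 5 (31.2%) ranked within the upper 3544 of the IDR list, all of them complex I genes, against 60.6% of all bound coding genes. The 8 bound genes of complex I had a median IDR rank of 2413, with 62.5% in that upper part. The medians were 4782 for complex II (1 gene), 6199 for complex IV (4 genes) and 4946 for complex V (3 genes). Leaving out a replicate kept only peaks in the top N of the others, with their IDR ranks, which by itself tends to drop low-ranked peaks. Without replicate 1, that is over the 7 genes in the top N of replicates 2 and 3, the median was 2204, against 1972 for coding genes. Without replicate 2 it was again 2204 over 7 genes, against 2080. Without replicate 3 it was 4782 over 15 genes, against 2196. By replicate support, 7 of 16 (43.8%) were in the top N of all 3 replicates, against 70.4% of all bound coding genes, and 8 were in that of 2 replicates. By replicate the count in the top N was 15, 15 and 8 of 16 in replicates 1, 2 and 3, against 90.3%, 88.2% and 83.4% of all bound coding genes. Within the top N of each replicate the median rank of bound genes of the set was 4929, 3696 and 3959, against 2948, 2842 and 2992 for coding genes, a difference in the same direction in each replicate.

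Every summit at a bound oxidative phosphorylation gene also lay within 500 bp of the start of another coding gene on the opposite strand. This held for 16 of 16, against 49.6% of all 2724 bound coding genes and 78.6% of those that are divergent. The gene's own start was the nearest in 9 of 16 (56.2%), counting ND-MNLL, whose start coincides with that of CG45089, against 74.8% of all bound coding genes and 60.3% of those that are divergent. The summit was upstream of the gene's start in 14 of 16 (87.5%), at a median of -114 bp, against 85.6% and -153 bp for all bound coding genes. ATPsynE, with a summit 35 bp downstream, and COX7C, with one 163 bp downstream, were the exceptions.

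The partners are of many kinds, and distances to them are between the annotated starts nearest the summit. ND-ASHI shares its summit with Fum1, a fumarase gene of the tricarboxylic acid cycle, across 522 bp, with the summit 252 bp from the start of ND-ASHI and 270 bp from that of Fum1. ND-42 lies opposite Cchl, whose product attaches heme to cytochrome c, across 229 bp, with the summit 117 and 112 bp away from the starts. Both of these partners have products that act in mitochondria. SdhC lies 398 bp from Tctp, ND-23 lies 302 bp from spn-E, a helicase of the piRNA pathway, and ND-24 274 bp from corolla, a meiosis gene. ATPsynCF6 lies 214 bp from Sec13, of a vesicle coat, COX7B 260 bp from Sec3, of the exocyst, and ND-MNLL 233 bp from p115, a Golgi tether. COX5B lies 298 bp from IFT52, of cilium transport, COX5A 179 bp from glo, an RNA-binding protein, and ND-51 232 bp from CG13994. The remaining partners were TppII (221 bp from ND-MWFE), RhoGAP68F (284 bp from ND-SGDH), yata (350 bp from ATPsyngamma), Afti (258 bp from ATPsynE) and oys, whose start faces that of COX7C across 266 bp. The summit cannot be assigned to 1 gene of a pair from these lists.

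**Figure D4:**
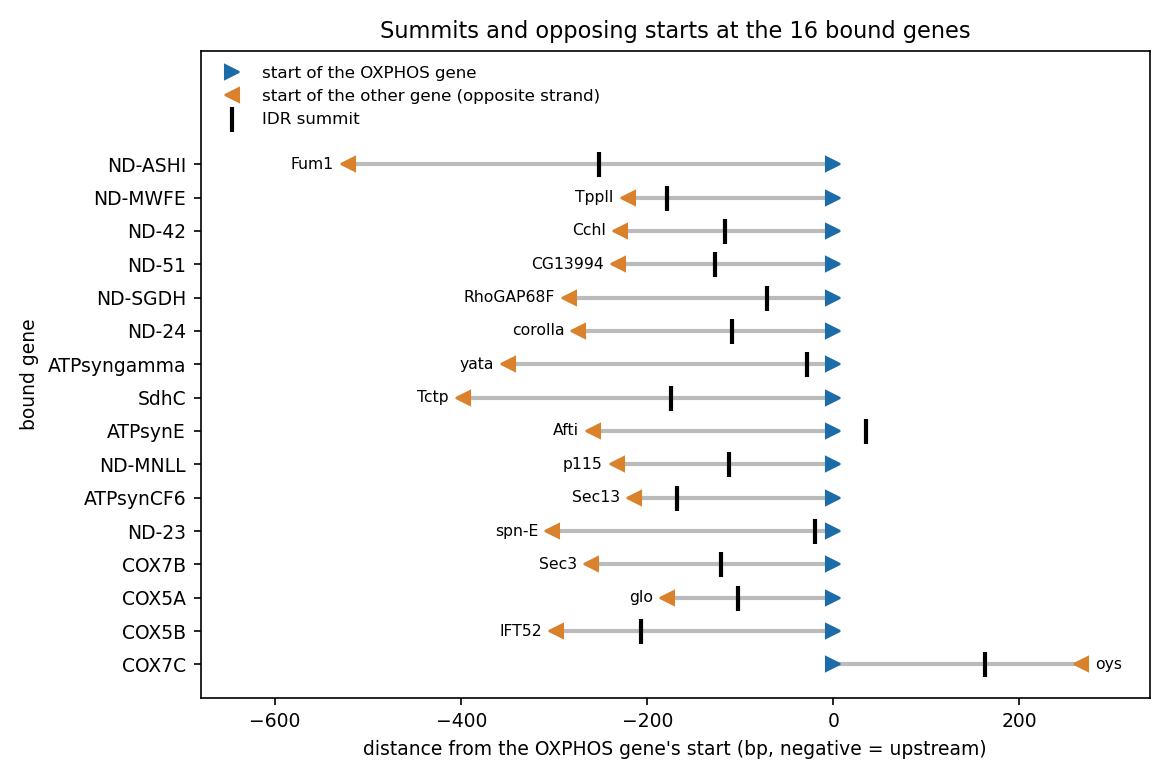
Position of the IDR summit and of the opposing start relative to the start of each of the 16 bound genes (x axis, bp, negative is upstream; y axis, genes by IDR rank). The summit lies between both starts at all genes except ATPsynE.

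In the IDR list, divergent oxidative phosphorylation genes were bound at a share near that of divergent coding genes, but not in replicate 3. Of the 40 divergent genes of the set, 12 were bound (30.0%, interval 16.6% to 46.5%), beside 30.7% of divergent coding genes. In the top N of replicates 1, 2 and 3 the count was 12, 14 and 7 of 40 (30.0%, 35.0% and 17.5%), beside 32.8%, 33.3% and 30.0% of divergent coding genes. In every replicate, and likewise without replicate 1 or without replicate 2, 5 of 40 (12.5%) were bound, beside 23.0%, 23.0% and 23.8% of divergent coding genes under those conditions in turn. Of the 46 others, 4 were bound (8.7%, interval 2.42% to 20.8%), namely ND-ASHI, ND-MWFE, COX5A and COX7C, beside 13.2% of coding genes that are not divergent. Counting any annotated start, not only the 5′ end of the gene, 16 of 47 divergent genes were bound (34.0%), beside 31.6% of coding genes. On that count 0 of the 39 others were bound, which allows up to 7.69% (exact upper limit 9.03%), beside 11.6% of coding genes. In the top N of each replicate 1 of the 39 was bound (2.56%), beside 12.3%, 11.9% and 12.7% of coding genes in replicates 1, 2 and 3. Among divergent genes of the set, the median gap between 5′ ends of the gene records, which can differ from the starts nearest the summit (42 bp at ND-24 and 56 bp at ATPsyngamma), was 246 bp where bound (range 42 to 398) and 266 bp where not bound (range 21 to 983). For all divergent coding genes the median gap was 309 bp where bound and 298 bp where not bound.

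**Figure D5:**
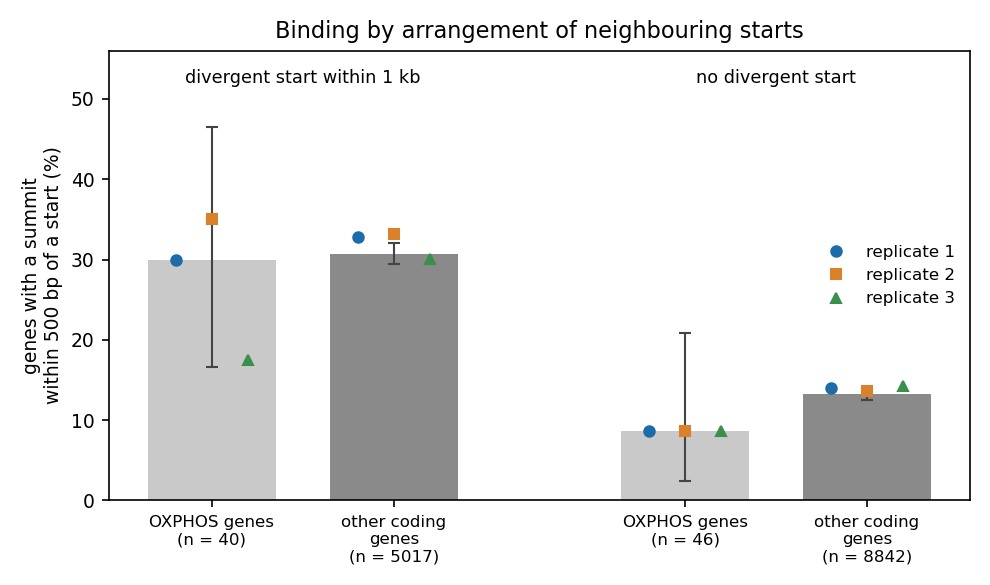
Share of genes bound (y axis, percent) among oxidative phosphorylation genes (OXPHOS) and other coding genes, with and without a divergent start within 1000 bp. Bars are the IDR list with 95% exact binomial intervals and points the replicates; the 40 divergent genes of the set reach 30.0% and the 46 others 8.7%.

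No gene of the set lay between 252 and 513 bp from a summit. The farthest bound genes were ND-ASHI at 252 bp, COX5B at 207 bp and ND-MWFE at 179 bp, and the nearest not bound were COX7AL2 at 513 bp, ND-75 at 753 bp and UQCR-14 at 925 bp. Besides UQCR-C2, those within 2 kb were ND-39 at 1568 bp, ATPsyndelta at 1649 bp, COX7CL at 1832 bp, COX5BL at 1838 bp and ND-B22 at 1873 bp. Genes not bound but with a top N summit within 500 bp in 1 replicate were ND-30, COX7AL2 and COX8 (replicate 2), SdhA, UQCR-C2 and COX6B (replicate 3) and ATPsynC (replicate 1), and no unbound gene had one in more replicates.

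Of the strings searched in promoters, that of M1BP stood farthest above its share in coding promoters, and it was about as frequent at bound genes as at the unbound genes without duplicates (4 of 16 and 12 of 49). Strings were searched on both strands from 250 bases before to 50 after the 5′ end of each gene record. At ND-24, COX5A and ATPsyngamma that end is not the start nearest the summit. GGTCACAC, the string of the factor M1BP, was in 16 of 65 promoters without duplicates (24.6%) and in 4 of 16 bound, those of ND-MWFE, COX5A, COX5B and COX7B, beside 7.7% of coding promoters and 10.8% of those of bound coding genes. It was in 0 of the 16 windows of 200 bp around the summits, beside only 2.54% of summits at coding genes. TATAAA was in 61.5% of the 65 and 10 of the 16 bound, beside 45.8% of coding promoters and 47.4% of bound ones. The DRE was in 9 of 65 (13.8%) and 2 of 16 bound, ND-23 and ND-MNLL, beside 9.36% of coding promoters and 12.4% of bound ones, and CATCNCTA (Ohler 7) in 10.8% and 2 of 16 bound, beside 6.42% and 11.1%. The shares of the DRE and Ohler 7 at the 16 bound genes (12.5% each) were thus near those of bound coding genes. The nuclear respiratory gene element was in 5 of 65 (7.69%), beside 5.18% of coding promoters and 6.02% of bound ones, and in 3 of 16 bound, ND-42, ND-SGDH and ND-MNLL, whose sequences stand above. The same 3 held it within the windows around their summits (18.8%), beside 5.62% of summits at coding genes, and some of its matches overlap the TATA string, as at ND-42. GAGAG was in 16.9% of the 65 and 2 of 16 bound, beside 29.7% and 32.8%, and a run of 8 A was in 11 of 65 and 5 of 16 bound, beside 2225 of 13945 coding promoters and 461 of 2724 bound ones. Neither ACCGGAAG (Ets) nor GCGCATGC (NRF1) was in a bound promoter, and CACGTG, the E-box, was in 1. All 3 are rare, in 0.301%, 1.05% and 4.2% of coding promoters in turn, so 16 promoters say little about them. Bound summits were rich in A and T, with a median of 72.0% over 100 bp (range 54.0% to 79.0%), beside 70.0% at coding genes. A match describes letters only.

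Other genes of mitochondrial energy supply, none of them in the set, were bound in part. Of 10 matched subunits and carriers with other names, 4 were bound (40.0%): the testis cytochrome c gene Cyt-c-d (IDR rank 276), blw, the alpha subunit of ATP synthase (rank 2254), and the complex IV subunits cype (rank 3288) and levy (rank 6055). Each of these but levy was in the top N of every replicate. Of 13 genes listed as assembly factors, a broad list that includes NdufV3 and ttm50, 2 were bound. These were CIA30 of complex I at rank 126 and Sirup of complex II at rank 6931. CIA30 was in the top N of every replicate, and Sirup in that of replicate 3 only, at rank 5617. Of 20 genes listed for the tricarboxylic acid cycle, a broad list that also includes Pdha, Pdhb and muc, 6 were bound (30.0%). These were Idh3g, Fum1, mAcon1, Idh, muc and ScsbetaA, with ranks 227, 243, 1987, 5830, 5848 and 6998. Idh3g, Fum1 and mAcon1 were in the top N of every replicate. Idh and ScsbetaA were in that of replicate 3 only, at ranks 2343 and 6461, and muc in that of replicate 1 only, at rank 4559. Of 15 import and chaperone genes 5 were bound (33.3%), Hsc70-5, Tom7, Tim9a, Hsp60A and Tim10. Tom7 was in the top N of every replicate, and Tim10 in that of replicate 1 only, at rank 4806. Of 18 genes of mitochondrial gene expression 2 were bound, mTerf5 and mtSSB. The peak at mTerf5 was in the top N of every replicate, and that at mtSSB in replicate 2 only, at rank 1881. None of 7 genes of nucleotide and phosphate exchange was bound in the IDR list, although 3 were in the top N of replicate 3. These shares are to be read beside the 19.5% of all coding genes. Exact intervals were 12.2% to 73.8% for the 40.0%, 11.9% to 54.3% for the 30.0% and 11.8% to 61.6% for the 33.3%. Each of them includes 19.5%.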

How the data were processed

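Peak lists from ChIP-seq on 3 biological replicates (separate biological replicates per the labels) were used in dm6 coordinates. The authors deposited, per the labels, a list of 30000 peaks and background for each replicate, a pooled list of the same size and an IDR-thresholded list of 7089, whose peaks are the 7089 highest of the pooled list. Each peak carries the authors' deposited signal value, whose scale is not stated, so it was used only to rank peaks within a list. The aligner, the peak caller, the IDR cut-off and the depth were not given in the sources used here. No column of another sample was present, and the dm3 lists and the control were not used here. Sheared fragments were 200 to 800 bp, per the labels.

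Starts were taken from Ensembl release 115, and sequence from the RefSeq copy of genome release 6. Python 3.11.15, numpy 2.4.6, scipy 1.17.1 and matplotlib 3.10.9 were used. Intervals are exact binomial, and they and the limits of 3 counts cover counting error only. The counting was tested on simulated peaks. The members and lists were chosen with earlier results of these data known, and the divergent arrangement and its alternatives after the data were seen. Named are all bound members, members within 2 kb of a summit, partners sharing a summit and bound genes of the other lists; further genes were chosen by role or support.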

Additional observations from a re-analysis of the deposited data

How the results depend on the processing

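No paired analysis was possible because the samples form 1 group. The count of 16 bound genes stayed within 1.5 times under wider or narrower windows, peak overlap and each replicate alone. It was 14 (16.3%, beside 12.7% of coding genes) within 200 bp and 19 (22.1%, beside 23.2%) within 1000 bp. Peak overlap gave 17 (19.8%, beside 21.2%), and the start of the gene record 16 (18.6%, beside 16.8%). The count was 9 (10.5%, beside 14.8% of coding genes) when only the nearest start counted. It was 5 (5.81%, beside 11.8%) in the upper part of the list and 7 (8.14%, beside 13.9%) for peaks that every replicate held in its top N. Requiring the top N of the other replicates, with 1 left out, gave 7 to 15, with 7 (beside 14.6% and 15.2%) without replicate 1 and without replicate 2, which both keep replicate 3. The same gave 5 to 12 bound divergent genes (12 in the IDR list), 7 to 15 genes supported by every remaining replicate, and a median rank of 2204 to 4782 (4864 in the IDR list), beside 1972, 2080 and 2196 for coding genes without replicates 1, 2 and 3 in turn. Counting each replicate's whole list, support in all 3 was 13, against 7 in the top N. The DRE string was in 1 window around a summit, that of ATPsynE, against 2 promoters, those of ND-23 and ND-MNLL. The matching genes thus differ between the windows and the promoters. Among values for single complexes, duplicates and strings, 19 moved and 50 did not. Outside the set, blw of complex V and cype of complex IV were in the top N of every replicate. Within the set, no gene of complex IV or V was bound when every replicate had to hold the peak in its top N. The cause was not tested. Unknown depth and few genes per complex limit all shares.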
